A study of Glycine max with 24 samples.

Results

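MYB genes encode transcription factors that are named for a shared DNA-binding domain, and the soybean array used here carries many of them. A gene was counted as a MYB gene when its symbol in the table of probe sets and genes was MYB followed by digits, and MYB12A was included. The table held 68 such symbols. For 65 of them at least 1 probe set belonged to that gene alone, out of 6029 genes with a probe set of their own, and these 65 are described here. MYB62, MYB129 and MYB169 had only probe sets shared with other symbols and were not analysed as members. RefSeq lists MYB129 as another name of MYB128 and MYB169 as another name of MYB98, so these may not be further genes. It also lists MYB120 as a name of MYB64 and MYB134 as a name of MYB114. Each of these symbols is counted separately here, so the 65 may include the same gene under different symbols. The 65 genes had 102 probe sets of their own, and 25 genes had several, of which the probe set with the highest mean over all arrays was taken.

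The study measured transcripts in root tips 1 cm long from soybean (Glycine max) seedlings in hydroponic culture, on 24 Affymetrix soybean arrays. Roots of the genotypes PI 416937, called PI here, and Young received either 10 µM aluminium (Al) together with magnesium (Mg) or the same Al without Mg, and were taken after 12 h or 72 h. The 8 groups were therefore PI with Al plus Mg and PI with Al alone, and Young with Al plus Mg and Young with Al alone, each at 12 h and at 72 h, with 3 arrays in each. The dose of Mg is not stated in the labels, and all 8 groups received Al, so what Al itself changes was not measured. The labels call PI sensitive to Al and Young tolerant, whereas PI 416937 is generally described as the more Al tolerant of the pair, and no result below rests on either description. Al is toxic to root tips in acid soil, and Mg given with it is known to lessen the loss of root growth.

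MYB proteins of the R2R3 class, named for a pair of repeats in their DNA-binding domain, are a large family in plants. They switch on or repress genes of phenylpropanoid and flavonoid synthesis, of the secondary cell wall, of cell fate and of responses to drought, salt and cold, and many act together with partner proteins of the bHLH class. In legume roots, MYB factors control the synthesis of isoflavonoids, which serve as signals to rhizobia and as precursors of defence compounds. A smaller class with a single MYB repeat includes parts of the circadian clock.

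All values are log2 of the intensity of a probe set on an array, and levels were compared between groups for the same probe set only. The background of an array was the 99th percentile of its 23442 probe sets for organisms other than soybean, which lay between 2.86 and 3.27, and a value at or under it is called at background. Between 76.8% and 80.5% of the soybean probe sets lay above it on each array. The correlation over probe sets between arrays of a group was 0.981 to 0.994. Of the genes chosen to check the tissue, 8 to 9 of 11 seed genes and 9 to 10 of 13 nodule genes lay at background on every array of a group, and the only root gene found in the table, NRT2, a nitrate transporter, was above background on some arrays of every group. Other genes of these lists were above background on all 24 arrays: the photosynthetic genes CAB3 and RCA11, the seed protease inhibitor genes KTI-2 and KTI-3, and the nodule genes NOD33, ENOD40B and N-36A, so the tips were not free of transcripts on those lists. The labels do not say whether the 3 replicates were separate cultures, so the p-values measure the spread between these arrays. A difference passed, or was called, at a Benjamini-Hochberg adjusted p under 0.05 in a limma model over 37593 soybean probe sets, and every adjusted p below comes from that model. Fewer cells of a type in a tip and less transcript in each cell cannot be told apart in these samples.

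Of the 65 MYB genes, 38 were above background on all 24 arrays, 16 on some arrays and 11 on none. The 11 were MYB11, MYB14, MYB84, MYB97, MYB98, MYB99, MYB128, MYB150, MYB164, MYB172 and MYB181. Among the other 54 genes the group with the highest mean was most often Young with Al plus Mg at 12 h, for 17 genes, or Young with Al alone at 72 h, for 13 genes. The group with the lowest mean was most often PI with Al plus Mg at 12 h, for 14 genes. Like counts over all probe sets are not given, so these are not read as a trait of MYB genes. Over 12 comparisons of treatment, time and genotype, 10 of the 65 genes passed in none and 5 passed only while at background in both groups. The shares of all probe sets that did so are not given. Of those 10, MYB81 was the gene with values above background on every array, from 5.33 to 6.42. The largest number of comparisons passed by a gene was 7, by MYB51 and MYB184.

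**Figure D1:**
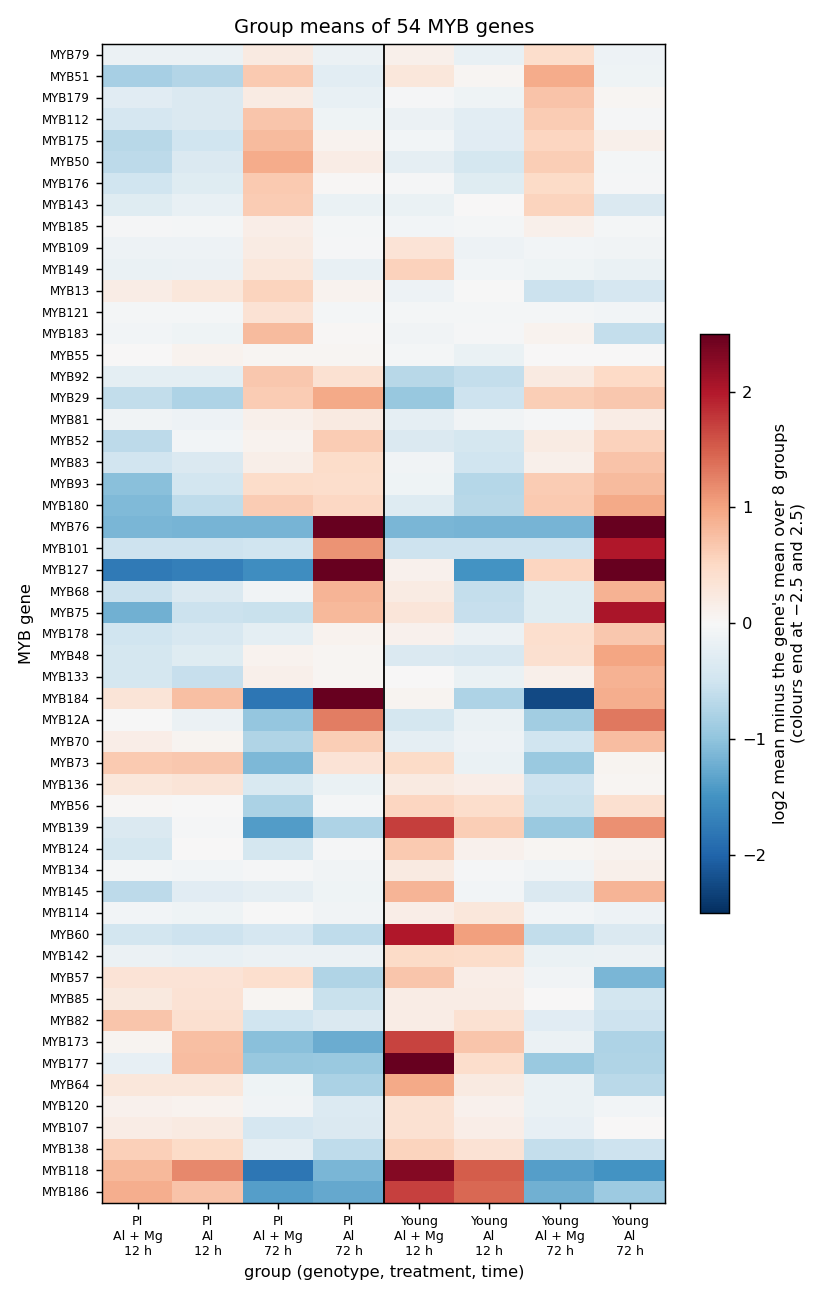
Group means of the 54 MYB genes above background on at least 1 array, each centred on its own mean over the 8 groups (colour, log2 difference from the mean); columns are groups and rows are genes ordered by likeness. MYB76 and MYB127 are darkest red with Al alone at 72 h in both genotypes, and MYB118 and MYB186 are red at 12 h and blue at 72 h.

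At 72 h, MYB genes differed between roots with Al plus Mg and roots with Al alone in both genotypes. In PI, 16 of the 65 rose with Mg and 10 fell, a share of 40.0% beside 33.7% of all probe sets tested, of which 20.7% were higher and 13.0% lower. In Young, 9 rose and 16 fell, a share of 38.5% beside 39.3% of all probe sets, with 23.1% higher and 16.3% lower. The shares of MYB genes that passed thus lay close to those of the whole array. Of the 16 that rose in PI, 5 (MYB11, MYB14, MYB84, MYB99 and MYB172) lay at background in both groups, and no fold is given for them. Without genes at background in both groups, 21 of 46 passed in PI, or 45.7% beside 38.7% of the probe sets so counted, and 25 of 48 in Young, or 52.1% beside 47.0%. The median difference over all 65 was 0.04 in PI, beside 0.06 over all probe sets, and −0.01 in Young, beside 0.03.

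**Figure D2:**
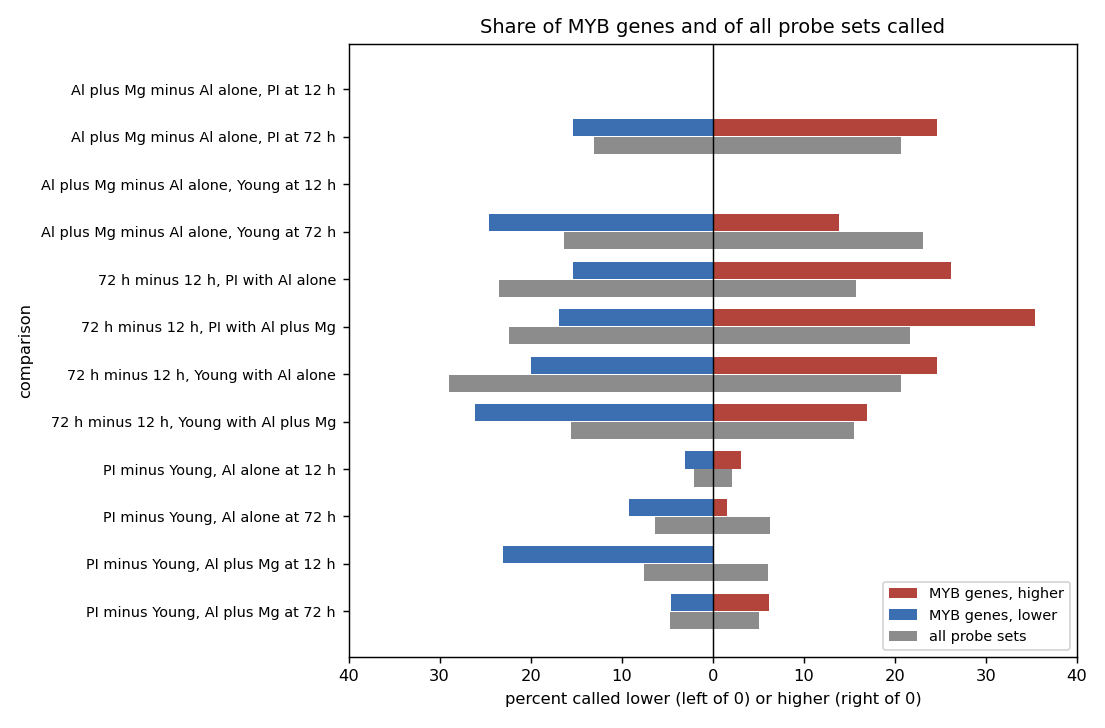
Percent of the 65 MYB genes (colour) and of all 37593 probe sets (grey) that passed in each of 12 comparisons, lower to the left and higher to the right of 0. The MYB genes that differed between PI and Young with Al plus Mg at 12 h all lie on the lower side, and no MYB gene passed in either Mg comparison at 12 h.

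The largest falls with Mg belonged to a small set of genes that were high with Al alone at 72 h. MYB76, which is known to raise tolerance to freezing and salt when the soybean gene is put into Arabidopsis, read 2.24, 2.24 and 2.25 in PI with Al plus Mg at 72 h, against 6.69, 7.58 and 5.02 with Al alone. In Young it read 2.26, 2.22 and 2.25 with Al plus Mg, against 5.96, 8.30 and 7.80 with Al alone. MYB76 was above background on the 6 arrays with Al alone at 72 h and at background on the other 18. Set against the background bound, it was at least 9.39-fold lower with Mg in PI (fitted log2 difference −4.18, SE 0.50, adjusted p 6.70e-06) and at least 20.9-fold lower in Young (fitted −5.11, SE 0.50, adjusted p 5.23e-07). MYB101 had the same pattern of detection at lower values. With Al alone at 72 h it read 3.92, 4.61 and 2.94 in PI and 5.83, 5.34 and 2.94 in Young, and on all 18 other arrays it lay between 2.17 and 2.21. The third replicate was near the bound in both genotypes. MYB101 was at least 1.54-fold lower with Mg in PI (adjusted p 0.0162) and at least 3.33-fold lower in Young (adjusted p 5.18e-04). In PI the call was lost with an offset of 32 before log2 (−0.37), and without replicate 2 of PI with Al alone the adjusted p was 0.0902 (fitted −1.23).

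**Figure D3:**
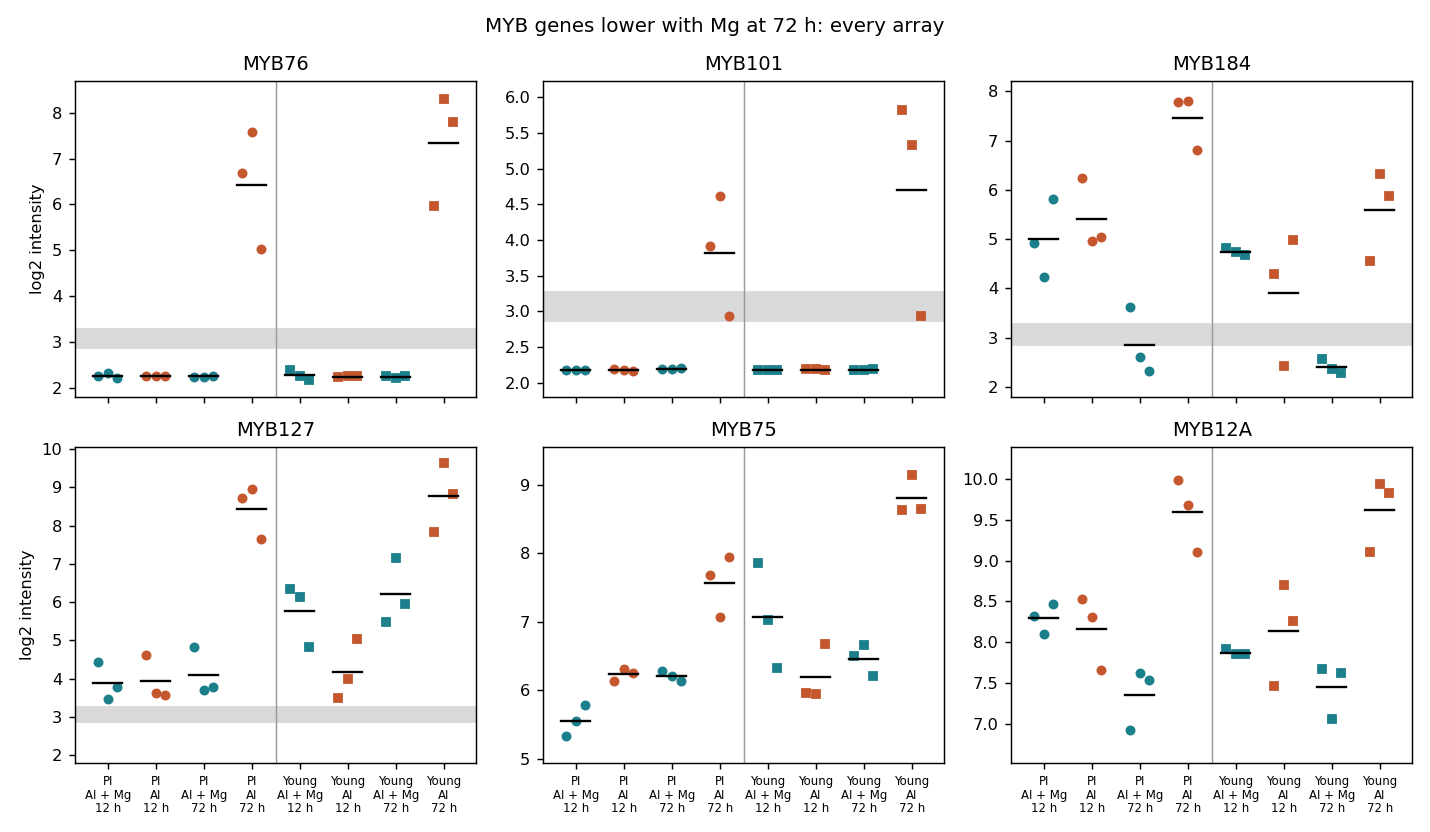
Log2 intensity on every array for MYB76, MYB101, MYB184, MYB127, MYB75 and MYB12A; circles are PI, squares Young, teal Al plus Mg, orange Al alone, black lines means of 3 arrays, and the grey band spans the background bounds of 2.86 to 3.27 where it falls within the axis. Vertical axes differ between genes and do not start at 0. In each gene the orange points at 72 h lie above the teal points at 72 h of the same genotype.

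MYB184 lay between 2.33 and 3.63 on the 3 arrays of PI with Al plus Mg at 72 h, against 7.77, 7.81 and 6.80 with Al alone. In Young it read 2.58, 2.37 and 2.29 with Al plus Mg, against 4.56, 6.33 and 5.87 with Al alone. Only 1 of the 6 arrays with Al plus Mg was above background, and no array with Al alone was as low. The fall in PI was 4.61 on the log2 scale as fitted (SE 0.60, adjusted p 1.41e-05), or 17.3-fold or more with the 2 dim arrays at their bound, and MYB184 was at least 6.13-fold lower with Mg in Young (adjusted p 3.71e-04). MYB127 read 4.83, 3.70 and 3.79 in PI with Al plus Mg at 72 h, against 8.71, 8.95 and 7.65 with Al alone, and fell by 4.33 (SE 0.58, adjusted p 2.05e-05). In Young it read 5.49, 7.16 and 5.95 with Al plus Mg, against 7.83, 9.64 and 8.82 with Al alone, and fell by 2.56 (SE 0.58, adjusted p 0.00184). The groups did not overlap in either genotype, and all of these arrays were above background.

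MYB12A, a soybean gene named after the flavonol regulator MYB12, averaged 7.35 ± 0.38 in PI with Al plus Mg at 72 h and 9.59 ± 0.45 with Al alone (SD, n = 3 each), a log2 difference of −2.24 (SE 0.32, adjusted p 3.82e-05). In Young the means were 7.45 ± 0.34 and 9.62 ± 0.45, a difference of −2.17 (SE 0.32, adjusted p 3.54e-05). The groups were apart on every array, with 6.92 to 7.67 on the 6 arrays with Al plus Mg and 9.10 to 9.99 on the 6 with Al alone. MYB75 read 6.28, 6.21 and 6.14 in PI with Al plus Mg, against 7.69, 7.07 and 7.94 with Al alone, and 6.51, 6.65 and 6.20 in Young with Al plus Mg, against 8.63, 9.15 and 8.65 with Al alone. Its log2 differences were −1.36 in PI (SE 0.30, adjusted p 0.00213) and −2.35 in Young (SE 0.30, adjusted p 9.00e-06). MYB73, known to raise lipid content when the soybean gene is put into other plants, fell by 1.47 in PI (SE 0.23, adjusted p 1.17e-04) and by 0.997 in Young (SE 0.23, adjusted p 0.00241). It read 10.68, 10.73 and 11.06 in PI with Al plus Mg and 12.19, 12.24 and 12.44 with Al alone. MYB56, MYB68 and MYB70 also fell in both genotypes, by 0.75 to 1.36 in PI and by 0.97 to 1.26 in Young.

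The rises with Mg went up to 1.18 on the log2 scale. MYB57 read 10.40, 9.85 and 9.94 in PI with Al plus Mg at 72 h, against 8.99, 8.59 and 9.05 with Al alone. In Young it read 9.61, 9.64 and 9.40 with Al plus Mg, against 8.72, 8.12 and 8.65 with Al alone. The groups were apart in both genotypes, and the log2 differences were 1.18 in PI (SE 0.21, adjusted p 2.78e-04) and 1.05 in Young (SE 0.21, adjusted p 5.68e-04). MYB51 read 11.40, 11.08 and 11.04 in PI with Al plus Mg, against 10.32, 10.17 and 10.28 with Al alone, and 11.58, 11.53 and 11.28 in Young with Al plus Mg, against 10.55, 10.42 and 10.31 with Al alone. Its log2 differences were 0.92 (SE 0.15, adjusted p 1.39e-04) in PI and 1.03 (SE 0.15, adjusted p 2.96e-05) in Young. MYB143 averaged 9.31 ± 0.10 with Al plus Mg and 8.51 ± 0.16 with Al alone in PI, and 9.23 ± 0.05 and 8.32 ± 0.16 in Young (SD, n = 3 each), with differences of 0.80 and 0.91 (adjusted p 5.72e-05 and 1.09e-05).

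MYB112 and MYB50 share 2 further probe sets on the array and their own probe sets had a correlation of 0.919 over the 24 arrays, so their values may not be separate. MYB112 averaged 12.29 ± 0.22 with Al plus Mg and 11.48 ± 0.20 with Al alone in PI, a difference of 0.81 (SE 0.14, adjusted p 2.33e-04). In Young its difference was 0.65 (SE 0.14, adjusted p 0.00107). MYB50 rose by 0.73 in PI, where 1 array with Al alone at 12.34 lay above the lowest array with Al plus Mg at 11.99, and by 0.65 in Young, where the groups did not overlap. Its call in Young was lost without replicate 1 of Al alone (0.56, adjusted p 0.0758) and without replicate 1 of Al plus Mg (0.57, adjusted p 0.0755), and with the mean of all its own probe sets (0.40, adjusted p 0.109). MYB183 rose by 0.77 in PI (adjusted p 0.0117) and by 0.69 in Young (adjusted p 0.0180). It shares 1 further probe set with MYB143, and their own probe sets had a correlation of 0.739. The call of MYB183 was lost without replicate 2 of PI with Al plus Mg (0.63, adjusted p 0.0613) and without replicate 2 or 3 of Young with Al alone (0.66 and 0.56, adjusted p 0.0553 and 0.0844). MYB85 rose by 0.60 in PI (SE 0.10, adjusted p 1.54e-04) and by 0.47 in Young (SE 0.10, adjusted p 0.00101).

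MYB176 is known in soybean to activate CHS8, a chalcone synthase gene of isoflavonoid synthesis. It read 14.79, 14.03 and 14.27 in PI with Al plus Mg at 72 h, against 14.14, 13.53 and 13.59 with Al alone, groups that overlapped by 1 array. Its log2 difference was 0.61 in PI (SE 0.21, adjusted p 0.0326) and 0.51 in Young (SE 0.21, adjusted p 0.0663), and MYB175, which shares 2 probe sets with it and had a correlation of 0.970 with it, differed by 0.70 (adjusted p 0.0174) and 0.42 (adjusted p 0.133). MYB64 rose by 0.68 in PI (SE 0.24, adjusted p 0.0366), a call that was lost when any of 4 of the 6 arrays was left out (replicates 1 and 2 of each group, differences of 0.51 to 0.68, adjusted p up to 0.158). MYB121 rose by 0.41 in PI, with 1 array of PI with Al plus Mg at 3.40 and all the others of both groups at background. In Young MYB79 rose by 0.56 and MYB179 by 0.65 (adjusted p 0.00493 and 0.00227), while in PI they differed by 0.37 and 0.40 (adjusted p 0.0619 and 0.0521). MYB79 and MYB179 share 1 further probe set, and their own had a correlation of 0.837, so their values may not be separate.

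Across the genotypes, which share no array, 7 MYB genes passed as higher with Mg in both PI and Young at 72 h, and 10 passed as lower in both, or 10.8% and 15.4% of the 65, beside 14.3% and 10.4% of all probe sets. The 7 were MYB50, MYB51, MYB57, MYB85, MYB112, MYB143 and MYB183, and they made up 7 of 16 rises in PI and 7 of 9 in Young. The 10 were MYB12A, MYB56, MYB68, MYB70, MYB73, MYB75, MYB76, MYB101, MYB127 and MYB184, all of the 10 falls in PI and 10 of 16 in Young. None passed in opposite directions and 31 passed in neither genotype (47.7%, beside 51.7% of all probe sets). In Young 6 more passed as lower: MYB139, MYB145, MYB133, MYB48, MYB83 and MYB136, with differences of −2.06 to −0.58, while in PI these ranged from −0.63 to 0.08 and did not pass. Their Mg differences were not shown to differ between the genotypes, because in the test of that difference at 72 h the only MYB gene to pass was MYB14 (1 of 65, or 1.54%, beside 1.45% of all probe sets, 0.803% higher and 0.644% lower), which is at background on every array. Over the 45 genes above background on at least 1 array of each comparison, the PI and Young differences had a correlation of 0.900, beside 0.885 over all probe sets. Of the 45, 36 had the same sign, and the share over all probe sets is not given. Fitted values with a group at background, such as those of MYB76 and MYB101, are among the 45.

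**Figure D4:**
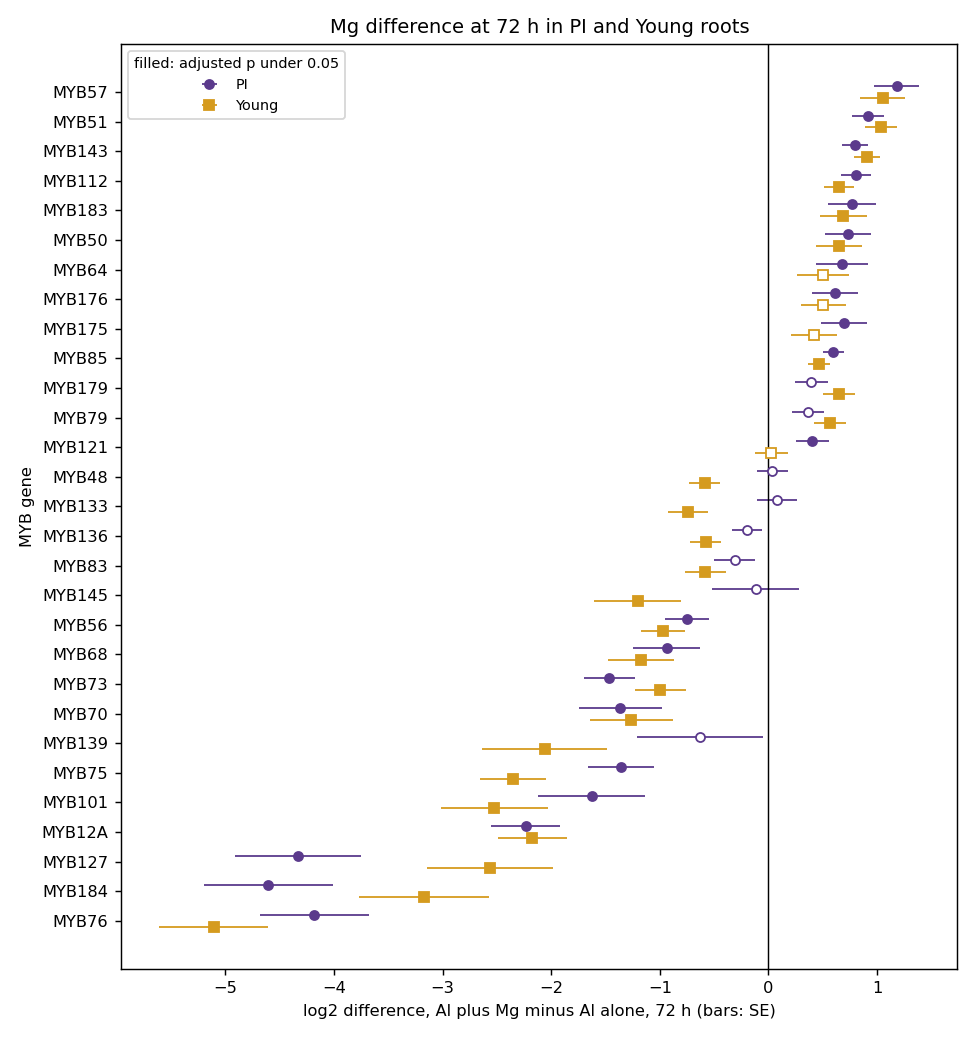
Log2 difference at 72 h, Al plus Mg minus Al alone, with its SE, for the 29 MYB genes that passed in PI (circles) or Young (squares) and were not at background in both groups; filled points passed. MYB76, MYB184 and MYB127 lie farthest to the left, and the rises on the right go up to 1.18.

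Measures outside the MYB genes moved with treatment at 72 h as well. The log2 difference between the 3′ and 5′ probe sets of the P450 control gene was 4.12 ± 0.25 with Al plus Mg and 2.51 ± 0.36 with Al alone in PI, and 3.80 ± 0.16 and 2.26 ± 0.37 in Young (SD, n = 3 each). For actin it was 8.41 ± 0.17 with Al plus Mg and 7.99 ± 0.03 with Al alone in PI, and for Young tips 8.41 ± 0.04 with Al plus Mg and 7.88 ± 0.20 with Al alone, so both had higher means with Mg in both genotypes. For ubiquitin it was 0.104 ± 0.033 with Al plus Mg and 0.104 ± 0.0031 with Al alone in PI, and in Young tips 0.106 ± 0.0037 with Al plus Mg and 0.104 ± 0.0051 with Al alone. For the sucrose-binding protein it was −0.172 ± 0.034 with Al plus Mg and −0.134 ± 0.045 with Al alone in PI, and −0.117 ± 0.015 and −0.0969 ± 0.0059 in that order in Young. Between the 3′ and middle probe sets, the actin difference was 1.60 ± 0.078 with Al plus Mg and 1.53 ± 0.061 with Al alone in PI, and 1.52 ± 0.092 and 1.62 ± 0.079 in that order in Young. In PI, that of P450 was 1.73 ± 0.23 with Al plus Mg and 1.52 ± 0.12 with Al alone. In Young that of P450 was 1.55 ± 0.082 and 1.37 ± 0.11 in that order. Ubiquitin gave 0.285 ± 0.014 and 0.239 ± 0.0037 in PI, and 0.241 ± 0.018 and 0.230 ± 0.0032 in Young, in that order. The sucrose-binding protein gave −0.269 ± 0.029 and −0.248 ± 0.018 in PI, and −0.303 ± 0.097 and −0.202 ± 0.043 in Young, in that order. The 13 nodule genes, 9 of them at background on every array in each of these groups, summed to an intensity of 2119 to 2613 with Al plus Mg and 4529 to 8065 with Al alone in PI, and to 2137 to 3279 and 8258 to 15053 in Young. By mean log2 over all arrays NOD33 was the brightest nodule gene at 11.7, and ENOD40B was next at 5.76. The brightest seed genes were KTI-2 at 14.3 and KTI-3 at 13.8, so these sums rest on few genes. The 11 seed genes, 8 or 9 of them at background, summed to 28457 to 42911 with Al plus Mg and 20377 to 27491 with Al alone in PI, and to 40285 to 43949 and 21699 to 35188 in the same order in Young. The part of these measures in the MYB differences was not tested.

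Enzymes of phenylpropanoid and flavonoid synthesis, the best known targets of this family, were read beside the MYB genes. Of 36 enzyme genes in the table, 1 rose and 15 fell with Mg in PI at 72 h, and 1 rose and 12 fell in Young. Over all probe sets 20.7% were higher and 13.0% lower in PI, and 23.1% higher and 16.3% lower in Young. The enzymes had median differences of −0.28 and −0.12 beside 0.06 and 0.03 over all probe sets. CYP93A1, a P450 of pterocarpan synthesis, averaged 5.14 ± 0.30 with Al plus Mg and 11.5 ± 0.57 with Al alone in PI (SD, n = 3 each), and fell by 6.41 in PI and 6.28 in Young (adjusted p 9.10e-09 and 8.29e-09). G4DT, a prenyltransferase of glyceollin synthesis, fell by 5.40 in PI and fell by 4.0048 in Young (adjusted p 1.38e-05 and 1.81e-04). CHS8 fell by 0.42 in PI and 0.32 in Young (adjusted p 0.00435 and 0.0187), and IFS2, an isoflavone synthase gene and another target of soybean MYB factors, fell by 1.48 and 1.27 (adjusted p 8.60e-05 and 2.46e-04). MYB29 and MYB133 are known in soybean as activators of isoflavonoid genes. MYB29 differed by −0.31 in PI and −0.07 in Young with Mg at 72 h (adjusted p 0.349 and 0.889), and MYB133 differed by 0.08 in PI (adjusted p 0.793) and fell by 0.74 in Young (adjusted p 0.00338). No gene of the list of partner proteins was found in the table by its symbol.

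Other probe sets of the same gene differed in how far they gave the same calls at 72 h. Both further probe sets of MYB57 rose in both genotypes, by 1.08 to 1.49, and the further probe set of MYB51 rose by 1.02 in PI and by 0.88 in Young. The further probe set of MYB73 fell by 1.67 in PI and 1.06 in Young. Of the 3 further probe sets of MYB12A, those above background on some or all arrays, 2 in number, fell by 2.12 to 3.05, while the last lay at background on all arrays. The 2 probe sets beside the one taken for MYB139 were dimmer, with 14 and 9 of 24 arrays at background, and did not pass in either genotype. The further probe set of MYB48 did not pass in Young (−0.43, adjusted p 0.0788). For MYB50, a further bright probe set rose by 1.07 in PI (adjusted p 0.00420) and did not pass in Young (0.49, adjusted p 0.158), and the last, with 18 of 24 arrays at background, passed in neither. The further probe set of MYB136 fell by 0.36 in PI, where the one taken had not passed, and by 0.79 in Young (adjusted p 0.0292 and 5.14e-05).

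At 12 h no MYB gene passed for Mg in either genotype by limma, where 0.0293% of all probe sets passed in PI (0.0106% higher and 0.0186% lower) and 0.0293% in Young (0.0213% higher and 0.00798% lower). Without adjustment, 4 of the 65 genes had a p under 0.05 in PI and 16 in Young. The unadjusted shares of all probe sets are not given, so these counts describe the MYB genes only. In PI the smallest p-values belonged to MYB52, MYB93 and MYB75, with log2 differences of −0.58, −0.57 and −0.67 and adjusted p of 0.99999 each. In Young they belonged to MYB60, MYB109 and MYB64, with adjusted p of 0.147 to 0.160. The differences of MYB60 and MYB64 were 0.96 and 0.73, while MYB109 lay at background on all 3 arrays with Al alone and is given no size. MYB177 had the largest fitted difference in Young at 12 h, 2.12, and its 3 arrays with Al plus Mg read 7.17, 6.07 and 4.46, against 2.66, 2.62 and 6.06 with Al alone. Replicate 3 of Al alone thus lay as high as the arrays with Al plus Mg.

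The result for Young at 12 h changed without that array. Without replicate 3 of Young with Al alone, 3117 probe sets passed, 8.29% of those tested, of which 1983 were higher and 1134 lower. In the same fit 10 MYB genes, or 15.4%, were higher with Mg and none lower. They were MYB177, MYB93, MYB173, MYB60, MYB68, MYB64, MYB75, MYB73, MYB57 and MYB145. MYB177, which is known to raise salt and freezing tolerance when the soybean gene is put into Arabidopsis, passed with an adjusted p of 0.00304, with both remaining arrays of Al alone at background, and MYB93 was 0.93 higher (adjusted p 0.0174). Without replicate 1 of Young with Al plus Mg, 1 gene passed, MYB109 (adjusted p 0.0360), against arrays with Al alone that were all at background, beside 0.0559% of all probe sets. Which set of arrays describes the group better was not tested.

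The Mg difference at 72 h was then set against that at 12 h in the same genotype. In PI, 9 of 65 genes had a higher and 5 a lower Mg difference at 72 h, or 21.5% beside 17.3% of all probe sets (9.32% higher and 8.03% lower), and in Young 5 had a higher and 17 a lower one, or 33.8% beside 35.2% (20.1% higher and 15.0% lower). Among the lower ones in PI were MYB127, MYB76, MYB184 and MYB12A, with fitted values of −4.28, −4.20, −4.19 and −2.37 (adjusted p 5.43e-04 to 0.00216). Among those in Young were MYB76, MYB127, MYB184 and MYB75, with fitted values of −5.13, −4.17, −4.01 and −3.24 (adjusted p 2.52e-05 to 0.00132). MYB76 was at background in 3 of the 4 groups of each genotype, and MYB184 was at background on 2 arrays of PI and all 3 of Young with Al plus Mg at 72 h, so the sizes and order of their values were not measured. The leading higher ones in PI were MYB57 by 1.19, MYB50 by 1.03, MYB51 by 1.02 and MYB143 by 0.92, and in Young they were MYB143 by 1.09, MYB51 by 0.80, MYB179 by 0.58 and MYB112 by 0.55. Leaving out 1 array ended the call of MYB50 for 5 of 12 arrays (adjusted p up to 0.0655), of MYB179 for 9 of 12 (up to 0.113) and of MYB112 in Young for 7 of 12 (up to 0.105). MYB11, MYB14 and MYB84, at background throughout, were among the 9 in PI.

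Between 12 h and 72 h many MYB genes changed, and some passed in the same direction in all 4 combinations of genotype and treatment. The share of all probe sets that did so is not given, so this is not read as a trait of MYB genes. With Al alone, 17 rose and 10 fell by 72 h in PI, or 41.5% beside 39.2% of all probe sets (15.7% higher and 23.5% lower), and 16 rose and 13 fell in Young, or 44.6% beside 49.7% (20.7% higher and 29.0% lower). With Al plus Mg, 23 rose and 11 fell in PI, or 52.3% beside 44.1% (21.7% higher and 22.4% lower), and 11 rose and 17 fell in Young, or 43.1% beside 31.1% (15.5% higher and 15.6% lower). In PI with Al plus Mg, 5 of the 23 rises were of genes at background at both times. The time differences with Al alone use the same arrays with Al alone at 72 h as the Mg differences, so these values are not independent.

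MYB118, MYB138, MYB173 and MYB186 fell by 72 h in all 4 combinations. MYB118, known to raise drought and salt tolerance in soybean, read 3.66, 2.80 and 3.88 at 72 h in PI with Al plus Mg, against 6.08, 5.80 and 6.32 at 12 h. In Young with Al plus Mg it read 3.77, 3.70 and 4.13 at 72 h, against 7.86, 7.38 and 7.36 at 12 h. Every array at 72 h was lower than every array at 12 h. MYB118 fell by 2.34 in PI with Al alone, by 2.62 as fitted in PI with Al plus Mg, by 3.00 in Young with Al alone and by 3.67 in Young with Al plus Mg (adjusted p at most 3.20e-05). MYB186 lay between 4.96 and 5.84 on all 12 arrays at 72 h and between 7.15 and 8.88 on all 12 at 12 h, and its falls were 1.996, 2.29, 2.36 and 2.90 in the same order (adjusted p at most 4.14e-06). MYB173, linked to flavonoid synthesis in salt-treated soybean roots, fell by 1.99, 1.11, 1.46 and 1.83 (adjusted p 1.94e-04 to 0.0125). MYB138 fell by 0.83 to 1.15, and in PI with Al plus Mg its times overlapped.

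**Figure D5:**
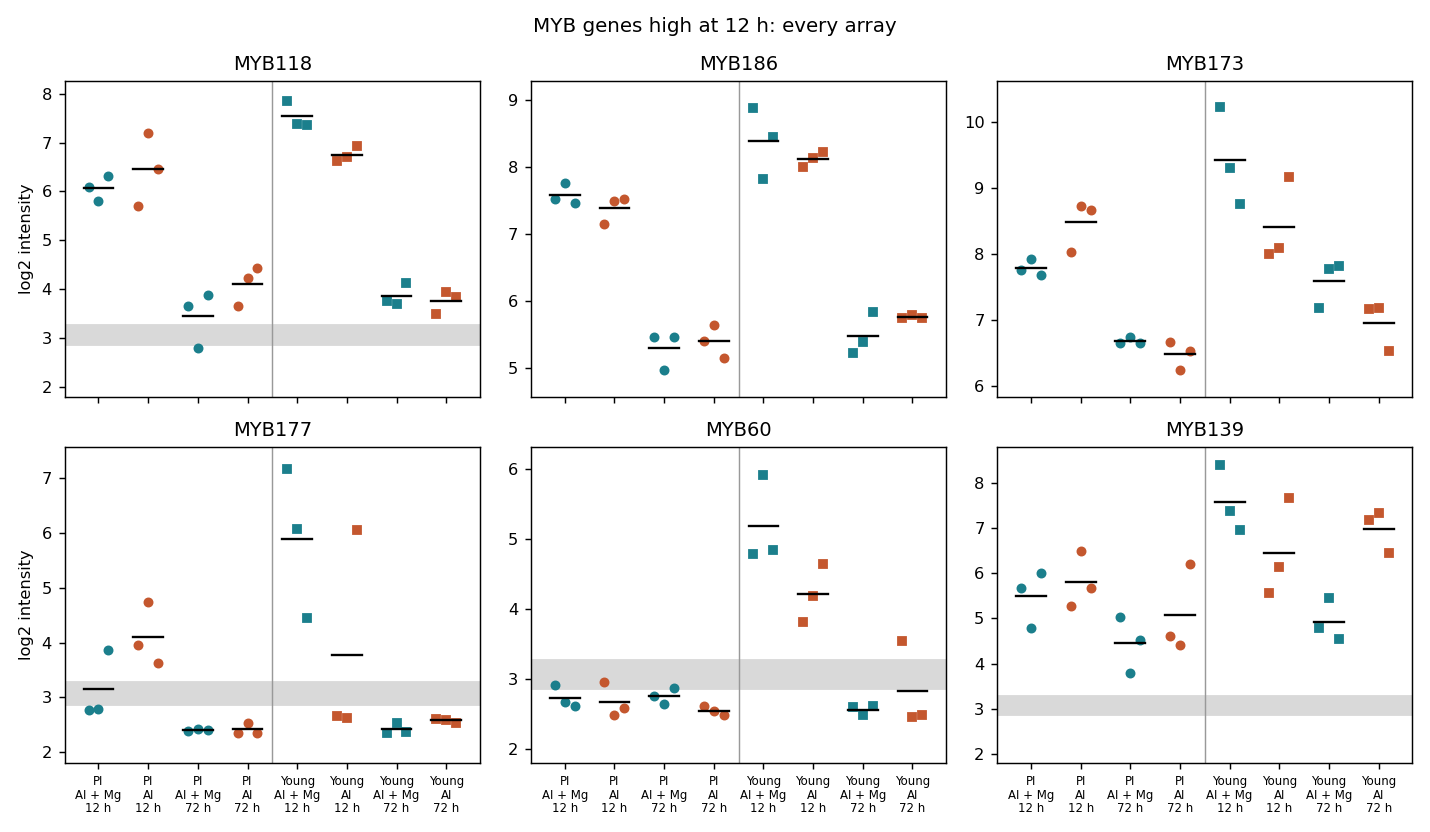
Log2 intensity on every array for MYB118, MYB186, MYB173, MYB177, MYB60 and MYB139; circles are PI, squares Young, teal Al plus Mg, orange Al alone, black lines means of 3 arrays, and the grey band spans the background bounds of 2.86 to 3.27 where it falls within the axis. Vertical axes differ between genes and do not start at 0. MYB118 and MYB186 are lower at 72 h in every combination, and MYB177 and MYB60 are highest in Young with Al plus Mg at 12 h.

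MYB29, MYB92, MYB93 and MYB180 rose by 72 h in all 4 combinations. MYB29 lay between 7.89 and 8.83 on the 12 arrays at 72 h and between 6.27 and 7.36 on the 12 at 12 h, with no overlap. Its rises were 1.71 in PI with Al alone, 1.24 in PI with Al plus Mg, 1.20 in Young with Al alone and 1.57 in Young with Al plus Mg (adjusted p 3.55e-05 to 4.42e-04). MYB180 and MYB93 share 1 further probe set and their own probe sets had a correlation of 0.976 over the 24 arrays. MYB180 rose by 1.16, 1.76, 1.64 and 0.98 (adjusted p 8.95e-06 to 0.00266), and MYB93 by 0.90, 1.504, 1.51 and 0.75 (adjusted p 7.70e-05 to 0.0282). The rise of MYB180 in Young with Al plus Mg did not pass with the mean of its own probe sets (0.44, adjusted p 0.110). MYB92 rose by 0.62 to 1.09, and in PI with Al alone its times overlapped.

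Other genes passed for time in some combinations and not in others. MYB76 and MYB127 rose with Al alone, MYB76 at least 11.3-fold in PI and at least 19.6-fold in Young, and MYB127 by 4.49 and 4.59 on the log2 scale (adjusted p 1.87e-05 and 6.12e-06). With Al plus Mg, MYB76 lay at background at both times and MYB127 did not pass in either genotype. MYB184 moved in opposite directions under the treatments. With Al alone it rose by 2.05 in PI (SE 0.60, adjusted p 0.0112) and passed as higher in Young (adjusted p 0.0256, with 1 array of 12 h at background and overlapping groups), while with Al plus Mg it fell by 2.14 as fitted in PI (adjusted p 0.00745) and was at least 3.42-fold lower in Young (adjusted p 0.00636). MYB12A rose by 1.43 with Al alone and fell by 0.94 with Al plus Mg in PI, and in Young it rose by 1.48 with Al alone. MYB75 rose by 2.62 in Young with Al alone (adjusted p 2.43e-06) and by 1.33 in PI (adjusted p 0.00211). In PI with Al plus Mg, MYB50 rose by 1.57 (SE 0.21, adjusted p 1.66e-05), MYB51 by 1.48 and MYB175 by 1.47. MYB177 read 2.35, 2.54 and 2.36 at 72 h in Young with Al plus Mg, all at background, against 7.17, 6.07 and 4.46 at 12 h. Its fitted difference was −3.48 (SE 0.71, adjusted p 0.00126), of which the size was not measured.

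Daily timing could differ between the 2 times, which are 60 h apart where a day has 24 h, and the hour of sampling is not given in the sources used here. LHY, a clock gene with a single MYB repeat whose symbol falls outside the rule, was lower at 72 h by 1.77 in PI with Al alone, 1.61 in PI with Al plus Mg, 2.20 in Young with Al alone and 2.54 in Young with Al plus Mg (adjusted p at most 1.04e-04). MYB114, listed in RefSeq with the clock name GmLHY2b and with MYB134 among its synonyms, was at background on 22 of 24 arrays. The summed intensity of 3 photosynthetic genes was 228 to 408 over the arrays at 12 h with Al plus Mg or Al alone, and at 72 h it was 1279 to 2075 in PI with Al plus Mg, 1229 to 1910 in PI with Al alone, 757 to 1432 in Young with Al plus Mg and 368 to 640 in Young with Al alone. NRT2 fell in all 4 combinations, by 2.09 to 4.89. With Al plus Mg, the difference between the 3′ and 5′ probe sets of P450 was 4.12 ± 0.25 at 72 h and 2.82 ± 0.34 at 12 h in PI, and 3.80 ± 0.16 at 72 h and 2.98 ± 0.32 at 12 h in Young, and that of actin was 8.41 ± 0.17 at 72 h and 8.09 ± 0.11 at 12 h in PI, and 8.41 ± 0.04 at 72 h and 7.97 ± 0.03 at 12 h in Young. With Al alone that of P450 was 2.51 ± 0.36 at 72 h and 2.95 ± 0.23 at 12 h in PI, and 2.26 ± 0.37 at 72 h and 3.09 ± 0.14 at 12 h in Young. The part of these in the MYB time differences was not tested.

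PI and Young differed at few MYB genes except with Al plus Mg at 12 h. In that condition 15 of 65 were lower in PI and none higher, or 23.1% lower beside 7.54% of all probe sets lower and 6.02% higher, and the median difference over the 65 was −0.24, beside 0.01 over all probe sets. Fitted on the 6 arrays of this comparison alone, 3 of the 65 passed, all lower in PI. The share of all probe sets that passed in that fit is not given, so this drop cannot be set against the array. MYB60 read 2.91, 2.67 and 2.62 in PI, all at background, against 4.79, 5.91 and 4.84 in Young, and was at least 4.43-fold lower in PI (adjusted p 3.29e-05). MYB177 read 2.78, 2.78 and 3.87 in PI, against 7.17, 6.07 and 4.46 in Young, a fitted difference of −2.75 (SE 0.71, adjusted p 0.0169), or 5.96-fold or more with the 2 dim arrays at their bound. MYB139 read 5.67, 4.78 and 6.003 in PI, against 8.38, 7.37 and 6.95 in Young, a difference of −2.08 (SE 0.58, adjusted p 0.0247). All 3 genes had no PI array above the lowest Young array.

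The others of the 15 were MYB127, MYB173, MYB75, MYB145, MYB118, MYB51, MYB124, MYB93, MYB186, MYB180, MYB178 and MYB109, with differences of −1.88 to −0.46, of which that of MYB109 rests on 2 dim arrays of Young above background and overlapped. The count fell to 7 without replicate 1 or 2 of PI with Al plus Mg or without replicate 1 of Young with Al plus Mg. The shares of all probe sets in those fits are not given. The call of MYB177 was lost for 4 of 6 arrays left out (adjusted p up to 0.101) and that of MYB139 for 3 of 6 (up to 0.125). MYB60 kept its call each time (adjusted p at most 3.08e-04). LHY was lower in PI by 1.08 here too (adjusted p 0.0118), and NRT2 by 2.66. The 13 nodule genes, 10 of them at background on every array in PI and 9 in Young, summed to 1113 to 2074 in PI and 3866 to 9671 in Young, and 2 of them were lower in PI. NOD33 was the brightest of the 13, with a mean log2 of 11.7 over all arrays. The 3 photosynthetic genes summed to 228 to 273 in PI and 307 to 408 in Young. The part of these in the MYB differences was not tested.

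In the other 3 conditions the share of MYB genes that differed between PI and Young was close to that of the array. With Al alone at 12 h, 2 were higher and 2 lower in PI, or 6.15% beside 4.21% of all probe sets (2.10% higher and 2.11% lower). MYB60 read 2.95, 2.49 and 2.58 in PI, against 3.82, 4.19 and 4.64 in Young (fitted difference −1.54, SE 0.29, adjusted p 0.00400), and MYB51 was lower in PI by 0.78 (SE 0.15, adjusted p 0.00487). MYB73 and MYB55 were higher in PI by 0.85 and 0.26 (adjusted p 0.0494 and 0.0429), calls that each were lost for 5 of 6 arrays left out (adjusted p up to 0.194 and 0.202). With Al alone at 72 h, 1 was higher and 6 lower in PI, or 10.8% beside 12.6% (6.24% higher and 6.37% lower). MYB48 read 8.72, 8.89 and 8.95 in PI, against 9.68, 10.05 and 9.64 in Young, and was lower in PI by 0.93 (SE 0.14, adjusted p 3.27e-04), a call kept without any 1 array.

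MYB184 was higher in PI by 1.88 with Al alone at 72 h (adjusted p 0.0472), MYB139 lower by 1.91 (adjusted p 0.0379) and MYB75 lower by 1.24 (adjusted p 0.0114). These calls were lost for 4, 4 and 2 of 6 arrays left out (adjusted p up to 0.189, 0.150 and 0.0646). MYB133, MYB178 and MYB107 were lower in PI by 0.83, 0.58 and 0.36. With Al plus Mg at 72 h, 4 were higher and 3 lower in PI, or 10.8% beside 9.83% (5.12% higher and 4.71% lower), and 3 of the 4 higher ones, MYB11, MYB14 and MYB84, were at background in both genotypes. MYB13 was the fourth, with 3.74, 4.38 and 3.89 in PI, against 2.61, 3.27 and 2.89 in Young, where 2 arrays were at background (fitted difference 1.08, adjusted p 0.0145). MYB127 was lower in PI by 2.10, MYB178 by 0.66 and MYB179 by 0.50 (adjusted p 0.0297 to 0.0465), and MYB13, MYB127, MYB178 and MYB179 lost their calls for 2, 4, 4 and 5 of 6 arrays left out (adjusted p up to 0.0677, 0.164, 0.137 and 0.155).

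No MYB gene passed a test of the Mg difference between the genotypes at 12 h, where 0.0133% of all probe sets passed by limma (0.00532% higher and 0.00798% lower). Without adjustment 13 of 65 had a p under 0.05. The share of all probe sets with an unadjusted p under 0.05 is not given, so that count cannot be set against the array. The smallest p-values belonged to MYB75, MYB173 and MYB93, with PI minus Young values of −1.55, −1.69 and −1.17 (adjusted p 0.111 to 0.124). Without replicate 3 of Young with Al alone, 5 MYB genes passed, or 7.69% beside 6.95% of all probe sets, and MYB173 and MYB93 had values of −2.07 and −1.50 (adjusted p 0.0129 and 0.00802). Without replicate 3 of Young with Al plus Mg, 2 passed, or 3.08% beside 1.42%.

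Several MYB genes followed each other across the 24 arrays, which span all 8 groups and therefore share the differences of time and treatment. Among genes above background on every array, the closest pairs that share no probe set on the array were MYB50 with MYB176, with a correlation of 0.934, and MYB50 with MYB175, MYB112 with MYB175 and MYB112 with MYB176, with 0.934, 0.932 and 0.922. MYB118 and MYB186, the genes highest at 12 h above, had a correlation of 0.962. The lowest correlations were those of MYB29 with MYB118, −0.899, and with MYB186, −0.898. MYB184 and MYB84, which share 1 probe set, had a correlation of −0.350.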

How the data were processed

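The deposited table held 1 intensity for each of 61170 probe sets on each of 24 Affymetrix arrays, made by the authors on a linear scale. How these were corrected, summarised and scaled is not stated in the labels, and column medians of 6.42 to 7.15 on the deposited linear scale did not settle it. Per the labels' protocols, RNA was labelled from an oligo-dT primer. Values were set to at least 1 and log2 was taken. Tests used limma 3.58.1 in R 4.3.3 with a mean for each of 8 groups (16 residual and 1.13 prior degrees of freedom), 16 comparisons and Benjamini-Hochberg adjustment within each over 37593 soybean probe sets. The number of arrays limits precision, as do values at background, which carry no size. Values for a group with all 3 arrays at background were compared at the bound.

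Gene symbols came from the platform's annotation, which gave 8677 of the tested probe sets 1 gene, 370 several and 28546 none. Of the gene IDs of the 65 MYB genes, 57 were found in the RefSeq table for Glycine_max_v4.0, taken as a source of names alone. MYB145 stood for 2 gene IDs with the same symbol. Of the chosen probe sets 12 carry a suffix marking possible cross-hybridization. No sequence is shown.

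The members, lists and rules were chosen with earlier results of these data known. Values were given for up to 6 rises and 6 falls for Mg at 72 h, 3 and 3 for time and genotype and 4 and 4 for interactions, among passing genes with no overlap between the arrays of the groups, or for the 3 smallest p where none passed. Some of these, such as MYB92, are given as a range, and some at background without a size. Other named genes were chosen with their values in view. Alternatives were quantile normalization, a signal filter at the 95th percentile of the background probe sets (2.40), a fit to the compared arrays only, a block for the replicate number, a trend with robust variance, an offset of 32, the mean of a gene's own probe sets, and each array left out. Leaving out genes at background was added after the values were seen. In simulated arrays made for the Mg comparison in PI at 72 h over 37593 probe sets, the test recovered 17.9% of changes of 0.5, 56.7% of 1 and 93.9% of 2 on the log2 scale, with 6 false calls among 118. In the data 12685 probe sets passed this comparison, so the adjusted cut-off was not the same and these shares may not apply.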

Additional observations from a re-analysis of the deposited data

Results flagged for a closer look

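In each genotype the Mg difference at 72 h differed from that at 12 h for part of the MYB genes: 14 in PI and 22 in Young, by the test of the difference itself, or 21.5% beside 17.3% of all probe sets in PI and 33.8% beside 35.2% in Young, so these shares were near those of the array. In PI the values were 1.19 for MYB57, 1.03 for MYB50, 1.02 for MYB51, 0.92 for MYB143, −4.28 for MYB127, −4.20 for MYB76, −4.19 for MYB184 and −2.37 for MYB12A. In Young they were 1.09 for MYB143, 0.80 for MYB51, 0.58 for MYB179, 0.55 for MYB112, −5.13 for MYB76, −4.17 for MYB127, −4.01 for MYB184 and −3.24 for MYB75. Those of MYB76 and MYB184 include groups at background, so their sizes were not measured. For the Mg difference at 72 h between PI and Young 1 gene passed, MYB14. It was at background on every array, so its fitted value of 0.34 carries no size and is not read as a difference.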

How the results depend on the processing

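Of 128 recounts of MYB genes under the alternatives that kept every array, 115 stayed within 1.5 times the count given above, and no named difference turned its sign. With the arrays of a comparison alone, 15 genes passed for Mg in PI at 72 h, and for the genotype 0 with Al alone at 12 h, 1 with Al alone at 72 h, 3 with Al plus Mg at 12 h and 1 with Al plus Mg at 72 h. These and the recounts below are given without the share of all probe sets in the same fits, so they describe the MYB genes only. Deviations of same-numbered arrays in different groups had a median correlation of −0.026, beside −0.013 for arrays of different numbers. As a whole they were thus not higher for the same number. Their range of −0.428 to 0.410, with 24 of 84 over 0.1, does not settle whether some groups were paired. With the replicate block, 2 genes differed between PI and Young with Al alone at 12 h and 4 at 72 h. Not counting genes at background, 4 differed with Al plus Mg at 72 h. The difference of the Mg effect between genotypes at 72 h gave 0 genes with the signal filter, the arrays alone, the offset, the mean of own probe sets and without genes at background. Leaving out 1 array gave 0 to 10 genes for Mg in Young at 12 h, 18 to 24 in PI at 72 h and 22 to 26 in Young at 72 h. For the genotype it gave 2 to 4 with Al alone at 12 h, 2 to 6 at 72 h, 7 to 13 with Al plus Mg at 12 h and 4 to 7 at 72 h. For the difference of Mg effects between genotypes it gave 0 to 5 at 12 h and 0 to 2 at 72 h. Of single named differences, 593 kept their call under the other alternatives and 44 lost it, and 579 kept it, 79 lost it and 8 gained one when an array was left out. The cause of these changes was not tested. Quantile normalization moved the median of all probe sets by at most 0.04. In the simulated arrays, which gave 118 calls where 12685 probe sets passed in the data, changes of 0.5 were mostly missed. The adjusted cut-off differs between them, so recovery in the data itself was not measured. Signals at background carry no size.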
